A study of Mus musculus with 4 samples.

Results

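The early B-cell factor (Ebf) family was examined in RNA from mouse retina at day E13.5 of embryonic development. Its members were taken by gene ID, which gave 4 genes, Ebf1, Ebf2, Ebf3 and Ebf4, of the 25239 gene IDs in the tables. Each of the 4 stood on a single row in every library, and all 4 passed the filter on low values described below. RNA sequencing had been done on 2 control libraries and 2 labelled Isl1cKO. By the series' own account the second group lacks Isl1, a LIM-homeodomain transcription factor of developing ganglion cells. The Cre driver, the part of Isl1 that was deleted, the alleles that the controls carry and the number of embryos per library are not given in the sources used here. Nothing states that the replicates came from separate animals, so p-values measure only the spread between these samples. In the controls that spread may be technical. The 2 libraries labelled Isl1cKO differed in Xist (287 and 0.501 TPM), so they were not repeats of the same RNA.

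EBF proteins are transcription factors with a zinc-containing DNA-binding domain and a helix-loop-helix domain through which they dimerize. They bind a palindromic DNA site. Ebf1 is best known for specifying B lymphocytes, while in the nervous system the family is expressed in newly born neurons downstream of proneural basic helix-loop-helix (bHLH) factors. In the embryonic retina Ebf genes are known from differentiating ganglion cells and from other early-born neurons.

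The targeted gene was read first. Levels are given as TPM, which scales each gene to its transcript length and each library to the same sum. Isl1 had control values of 242 and 201 TPM against 321 and 223 TPM where labelled Isl1cKO (replicates 1 and 2 in this order, here and below), so it was not lower in the libraries labelled Isl1cKO. The tables give 1 value per gene and none per exon, and every direction below rests on the labels. Aligned sequence ranged from 12.6 to 14.3 gigabases per library, and 13554 to 13932 genes reached 1 TPM. Isl1cKO replicate 2 stood farthest from the other libraries on the first principal component of all genes, and Xist was at 0.501 TPM there against 209 to 287 TPM in the other 3. The retinal label was borne out by Atoh7, a proneural factor of ganglion cell precursors, at 1025 to 1458 TPM, and by Pax6, a homeobox gene of the retina, at 537 to 610 TPM.

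The genes lie on separate chromosomes. In the authors' tables (mm10, per the submitters' processing notes), Ebf1 is at chromosome 11, 44618100 to 45008096 on the plus strand, and Ebf2 at chromosome 14, 67233292 to 67430952 on the plus strand. Ebf3 is at chromosome 7, 137193671 to 137314445 on the minus strand, and Ebf4 at chromosome 2, 130295939 to 130370481 on the plus strand. Genes on the opposite strand overlap Ebf2 (4930438E09Rik and Gm6878, listed at 0 in all 4 libraries) and Ebf3 (Gm10578, at most 0.0844 TPM). No gene ID of the tables overlaps Ebf1 or Ebf4.

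The sequences before the transcript starts are shown because Ebf1 and Ebf3, which were both lower in the libraries labelled Isl1cKO, differ in this respect. Given are 250 bases upstream of the start that matches the gene's position in the tables, from RefSeq on GRCm38.p6, 5′ to 3′ on the gene's strand, with CG dinucleotides in capitals. RefSeq windows matched 3 of the 4 members, and Ebf2 has none here.
Ebf1, chr11:44617850-44618099, plus strand: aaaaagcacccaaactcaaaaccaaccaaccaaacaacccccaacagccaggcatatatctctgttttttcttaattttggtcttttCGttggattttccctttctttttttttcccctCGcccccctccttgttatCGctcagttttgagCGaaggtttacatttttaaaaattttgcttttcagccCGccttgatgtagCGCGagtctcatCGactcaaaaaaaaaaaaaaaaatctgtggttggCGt
Ebf3, chr7:137314446-137314695, minus strand: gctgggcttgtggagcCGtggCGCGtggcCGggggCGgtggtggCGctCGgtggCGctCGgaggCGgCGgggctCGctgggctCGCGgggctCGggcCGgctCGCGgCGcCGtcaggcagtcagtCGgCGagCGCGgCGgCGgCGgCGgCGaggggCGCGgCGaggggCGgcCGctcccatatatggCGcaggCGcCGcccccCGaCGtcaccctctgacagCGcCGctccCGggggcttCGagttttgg
Ebf4, chr2:130295689-130295938, plus strand: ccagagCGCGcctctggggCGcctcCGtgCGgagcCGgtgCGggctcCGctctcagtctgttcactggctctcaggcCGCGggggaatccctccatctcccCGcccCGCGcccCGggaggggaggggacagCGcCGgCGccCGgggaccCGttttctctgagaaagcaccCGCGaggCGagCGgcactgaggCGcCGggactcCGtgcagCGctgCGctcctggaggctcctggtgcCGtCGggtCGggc
In these 250 bases the GC content was 40% for Ebf1, 80% for Ebf3 and 75.2% for Ebf4, with 9, 43 and 31 CG dinucleotides. With the 50 bases after the start, the Ebf1 window had a GC content of 36.7%, above 5.33% of the 32851 promoter windows of this length, and the Ebf3 window had 77%, above 97.6% of them. A second RefSeq start of Ebf1 lies downstream, and its window had a GC content of 53%, close to the median of 52.7%. The EBF palindrome (TCCC and GGGA with 2 bases between them), the E-boxes CAGATG and CAGCTG and the LIM-homeodomain site CTAATG were searched on both strands. None had a match in the windows of Ebf1, Ebf3 or Ebf4, while 0.904%, 17.2%, 16.3% and 7.36% of all windows hold them. No motif contains another, and the absence says only that these letters are not in these windows.

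The family's coding sequences were compared because reads can be divided wrongly between close relatives. The longest coding sequences in GENCODE M21 are 1776 bases for Ebf1, 1725 for Ebf2, 1788 for Ebf3 and 2088 for Ebf4. Of their 50-base stretches, 0 of 1727, 0 of 1676, 0 of 1739 and 0 of 2039 occur in a protein-coding transcript of another member. The longest runs of identical coding sequence are shown for the pairs that share the most bases, counted from the first base of the coding sequence of the gene named first.
Ebf3 and Ebf4, 27 bases, from 472 to 498: gagatcatgtgcagccggtgctgtgac
Ebf1 and Ebf3, 24 bases, from 52 to 75: gagccgctgggcagcggcatgaac
Ebf2 and Ebf3, 23 bases, from 211 to 233: ctggcgctctacgacaggcaggg
The other 3 pairs share runs of 15 to 20 bases. The read length is not given in the sources used here.

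Ebf3, a member with roles in the developing nervous system, was the most abundant and the one with the largest difference between the groups. Its control libraries held 134.6 and 104.8 TPM, and those labelled Isl1cKO held 47.0 and 29.7 TPM. Both libraries labelled Isl1cKO lay below both controls. The means were 120 ± 21.1 TPM and 38.4 ± 12.3 TPM (SD, n = 2 each), so that the level labelled Isl1cKO was 32.0% of control. The log2 fold change on the scale of log2(TPM + 1) was -1.64 (SE 0.26, 95% confidence interval -2.33 to -0.95), and 68 of the 13984 tested genes had a more negative one. The adjusted p-value from limma was 0.139, so Ebf3 did not pass the threshold of 0.05. It passed with a mean-variance trend in limma (adjusted p-value 0.0454), and its adjusted p-values ranged from 0.0454 to 0.283 over 9 alternatives that kept every library and added no term.

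Ebf1, second in level, had control values of 49.5 and 43.1 TPM against 23.7 and 19.9 TPM where labelled Isl1cKO. Again the groups did not overlap. The means were 46.3 ± 4.52 and 21.8 ± 2.67 TPM (SD, n = 2 each), and the level labelled Isl1cKO was 47.1% of control. The log2 fold change was -1.06 (SE 0.13, 95% confidence interval -1.40 to -0.71), with 173 genes more negative. In limma the adjusted p-value was 0.0829, short of the threshold. Ebf1 passed with the mean-variance trend (adjusted p-value 0.0226) and with the deposited FPKM in place of TPM (0.0258), within a range of 0.0226 to 0.193 over the same 9 alternatives.

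Ebf4 and Ebf2 were present at low levels, and their differences were small. Ebf4 had control values of 10.0 and 12.4 TPM against 14.1 and 10.9 TPM where labelled Isl1cKO, and the groups overlapped. Its log2 fold change was 0.14 (SE 0.17, 95% confidence interval -0.30 to 0.59; adjusted p-value 0.790 in limma). Without Isl1cKO replicate 1 the estimate changed sign, to -0.03. Ebf2, known for roles in neuronal migration and in brown fat, had control values of 2.90 and 2.76 TPM against 3.13 and 3.15 TPM where labelled Isl1cKO. Both of the latter lay above both controls, with a log2 fold change of 0.11 (SE 0.08, 95% confidence interval -0.09 to 0.32) and an adjusted p-value of 0.646 in limma. Those intervals cover no change as well as moderate rises, and for Ebf2 and Ebf4 they exclude a decrease as large as the estimate of Ebf1. Mean coverage per base, the depth behind these values, was 12.04 to 15.0 for Ebf2, 52.4 to 75.2 for Ebf4, 91.4 to 241 for Ebf1 and 145 to 692 for Ebf3.

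**Figure D1:**
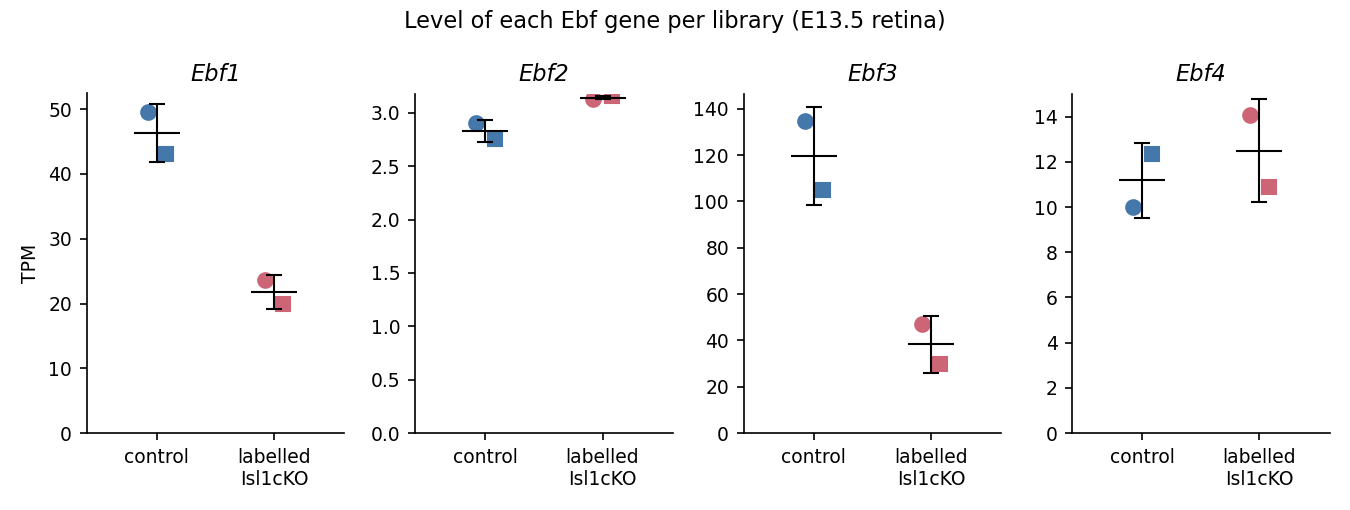
TPM of each Ebf gene (vertical axes in TPM from 0, scaled per gene) in control libraries (blue) and libraries labelled Isl1cKO (red), with circles for replicate 1, squares for replicate 2, horizontal bars for the mean and error bars for the SD (n = 2). Ebf1 and Ebf3 lie lower in both libraries labelled Isl1cKO than in both controls, while Ebf4 overlaps between 10.0 and 14.1 TPM and Ebf2 stays between 2.76 and 3.15 TPM.

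Against all genes, the members' counts read as follows. In limma 0 of the 4 passed the adjusted threshold, where 0.493% of the 13984 tested genes did, 0.465% lower and 0.0286% higher. At an unadjusted p-value under 0.05 in limma 2 of 4, Ebf1 and Ebf3, were lower, and 0 of 4 higher. Of all tested genes 12.1% lay at this level, 8.92% lower and 3.20% higher. A log2 fold change of -1 or less was found for 2 of 4, against 1.48% of tested genes. The groups did not overlap for 3 of 4, which is no sign by itself, as this held for 44.9% of tested genes, 30.0% lower and 14.9% higher.

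**Figure D2:**
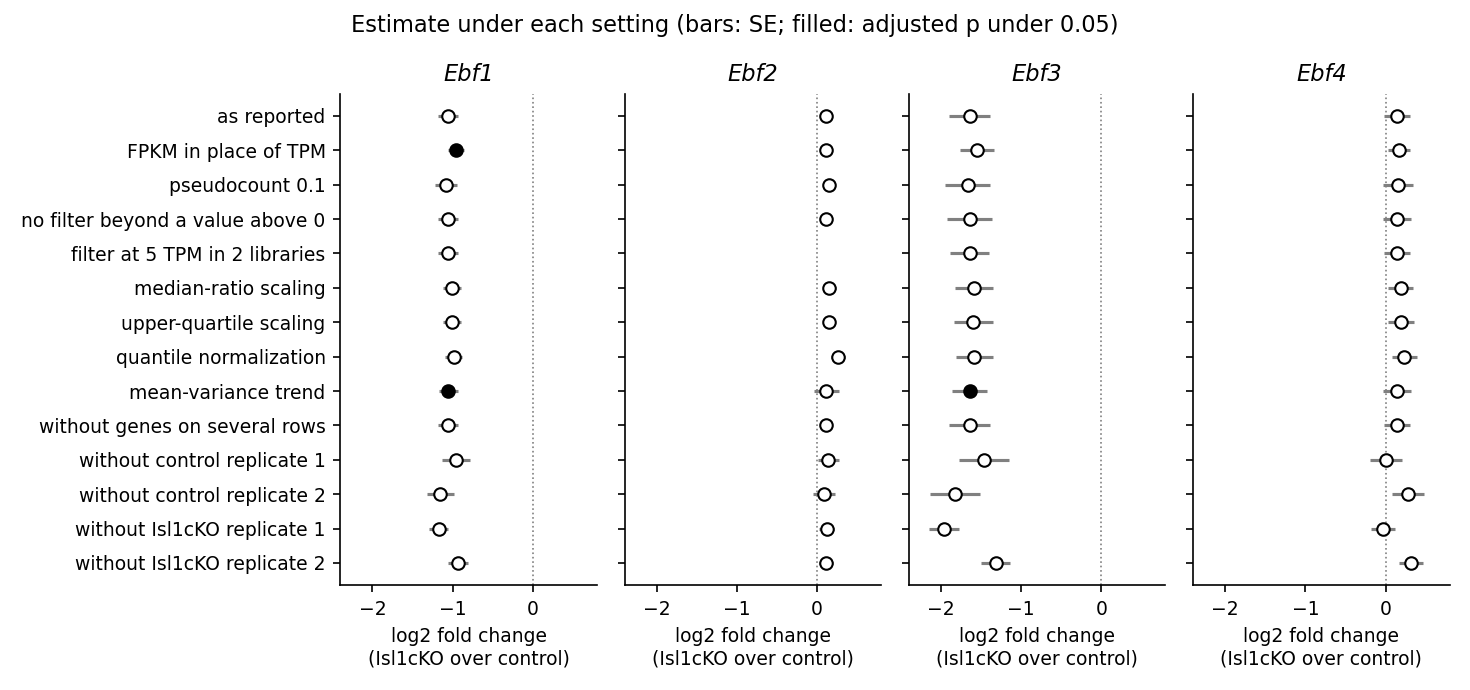
Log2 fold change of each Ebf gene (horizontal axes, Isl1cKO over control) under each processing setting other than the replicate block (vertical axis), with bars for the SE and filled points for an adjusted p-value under 0.05 in limma. Ebf1 stays between -1.18 and -0.94 and Ebf3 between -1.96 and -1.32, and filled points are present for Ebf1 under 2 settings and for Ebf3 under 1.

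The order of levels was the same in each of the 4 libraries, with Ebf3 highest, then Ebf1, Ebf4 and Ebf2. Within each group, the ranges of neighbours in this order did not overlap. Summed over the family, TPM came to 197 and 163 in the controls and to 87.9 and 63.6 in the libraries labelled Isl1cKO, means of 180 ± 24.1 and 75.8 ± 17.2 (SD, n = 2 each). Ebf3 made up 68.3% and 64.3% of that sum in the controls and 53.5% and 46.7% in the libraries labelled Isl1cKO. The share of Ebf4 was 5.08% and 7.58% in the controls and 16.0% and 17.1% in the libraries labelled Isl1cKO. The share of Ebf1 was 25.1% and 26.5% in the controls against 26.9% and 31.3%, and Ebf2 went from 1.47% and 1.69% to 3.56% and 4.96%. A share moves when any other member does, so these 4 are not independent of each other.

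**Figure D3:**
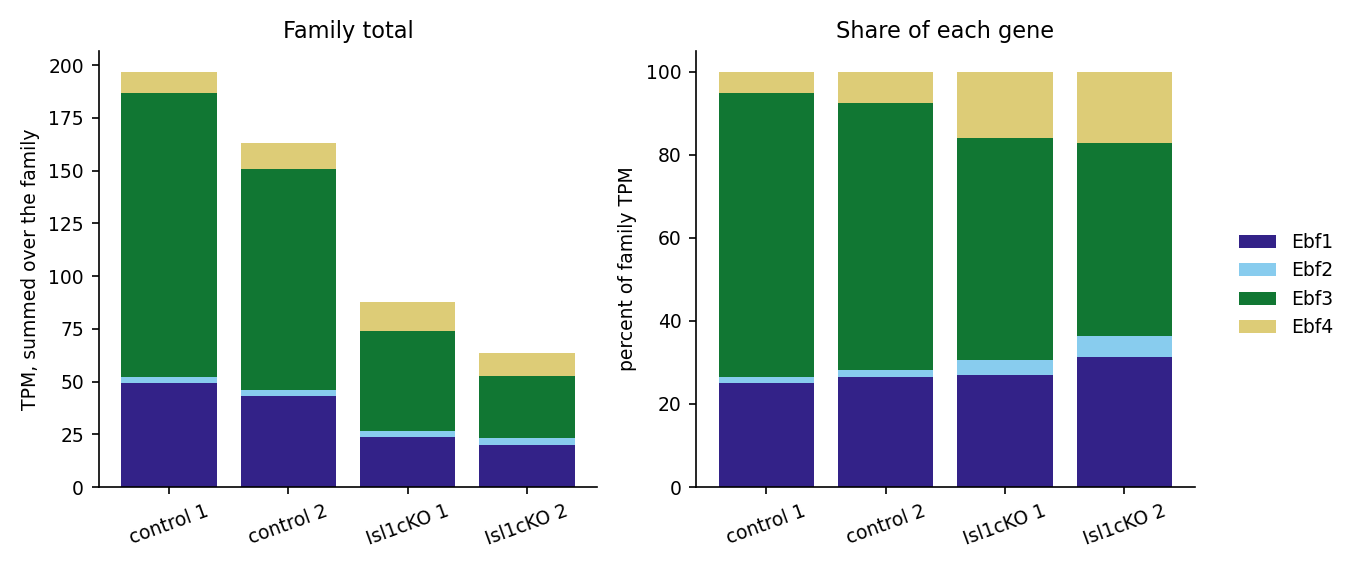
Summed TPM of the Ebf genes (left, vertical axis in TPM) and the percentage of that sum held by each gene (right) in the 4 libraries. The total is 163 or more in the controls and 87.9 or less in the libraries labelled Isl1cKO, and Ebf3 is the largest part of each bar.

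The members' responses were compared with each other through their ratios within a library, for 6 pairs. The ratio of Ebf3 to Ebf1 was 2.72 and 2.43 in the controls and 1.99 and 1.49 in the libraries labelled Isl1cKO, a difference of -0.58 on the log2 scale. The ratio of Ebf3 to Ebf4 went from 13.46 and 8.48 to 3.34 and 2.73, a log2 difference of -1.82, and that of Ebf1 to Ebf4 from 4.95 and 3.49 to 1.68 and 1.83, a log2 difference of -1.24. Against Ebf2 the log2 differences were -1.82 for Ebf3 and -1.24 for Ebf1. These 5 ratios did not overlap between the groups, but with 2 libraries against 2 the two-sided exact permutation test cannot go below 0.333, the p-value of each of the 5 (0.4 adjusted over the 6 pairs). The ratio of Ebf4 to Ebf2 overlapped, at 3.45 and 4.48 in the controls and 4.50 and 3.45 in the libraries labelled Isl1cKO (p = 1 in the exact test).

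None of the tested genes listed as cofactors or partners of EBF proteins passed. The list of cofactors and partners holds 11 genes, of which 9 were tested and 0 passed. At an unadjusted p-value under 0.05 in limma the count was also 0. The shares of all tested genes were 0.493% and 12.1%, so counts of 0 in so short a list are no sign by themselves. Its median log2 fold change was 0.01, against -0.05 over all tested genes. Zfp423, a zinc finger protein that binds EBF proteins and restrains them, had control values of 30.3 and 31.0 TPM against 30.5 and 33.7 TPM where labelled Isl1cKO. Its relative Zfp521 stood at 18.5 and 18.8 TPM and at 16.4 and 16.2 TPM, groups that did not overlap, and its estimate was -0.19 (adjusted p-value 0.448 in limma). Tcf3, the E protein that acts with Ebf1 in B cells, ranged from 184 to 207 TPM. Smarca4, an ATPase of chromatin remodelling complexes and the most abundant of the list, had an estimate of -0.13 (adjusted p-value 0.586 in limma).

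Upstream bHLH factors were likewise not called. Of 10 listed genes, 8 were tested, 0 passed, and 0 had an unadjusted p-value under 0.05 in limma. Against shares of 0.493% and 12.1% of all tested genes, these counts are no sign by themselves. The median log2 fold change of the list was -0.04. For Atoh7 the estimate was 0.08 (adjusted p-value 0.919 in limma). Neurod1, a factor of neuronal differentiation, had control values of 117 and 120 TPM against 122 and 110 TPM where labelled Isl1cKO. Neurog2, another proneural factor, ranged from 156 to 176 TPM over the 4 libraries, and the groups overlapped.

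Other transcription factors of ganglion cells included lower, level and slightly higher genes. Of 24 listed, 22 were tested, and 4 passed the adjusted threshold in limma, all lower, namely Irx2, Irx3, Irx4 and Irx5 of the Iroquois homeobox family. Irx3 fell from 25.3 ± 4.58 to 2.03 ± 0.242 TPM (SD, n = 2 each), a log2 fold change of -3.11 (adjusted p-value 0.0119 in limma), and Irx5 fell from 20.3 to 1.30 TPM (-3.20, 0.0199). Irx4 fell from 5.42 to 0.0541 TPM (-2.59, adjusted p-value 0.0216 in limma) and Irx2 from 42.1 to 17.0 TPM (-1.26, 0.0249). Ebf1 had a less negative estimate than Irx2, and Ebf3 a more negative one with a larger standard error (0.26 against 0.09). At an unadjusted p-value under 0.05 in limma, 11 genes of the list were lower and 2 higher, and the list's median was -0.44. Among all tested genes 0.465% passed the adjusted threshold as lower, and at the unadjusted level 8.92% were lower and 3.20% higher. With a library left out, 0 to 2 genes of the list passed in limma, 0 of them without control replicate 1 or without Isl1cKO replicate 2, and the median ranged from -0.63 to -0.23. Pou4f2, a POU factor that acts beside Isl1 in ganglion cells, had control values of 126 and 124 TPM against 135 and 120 TPM where labelled Isl1cKO. Its relative Pou4f1 had control values of 19.6 and 19.7 TPM against 9.66 and 4.16 TPM where labelled Isl1cKO (adjusted p-value 0.268 in limma).

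Structural and axonal genes of ganglion cells were read next. Of 26 listed, 23 were tested. In limma 1 passed, Nell2, a secreted protein of the axon guidance system, which fell from 34.2 to 3.26 TPM (log2 fold change -3.04, adjusted p-value 0.0239). At an unadjusted p-value under 0.05 in limma, 18 were lower and 0 higher. Of all tested genes 0.465% passed the adjusted threshold as lower, and at the unadjusted level 8.92% were lower and 3.20% higher. Negative estimates numbered 21 of the 23, with a median of -1.04, where 63.8% of all tested genes had a negative estimate. With any library left out, 0 of the 23 passed in limma. Tubb3, a neuronal tubulin and the most abundant member, had control values of 1332 and 1209 TPM against 972 and 808 TPM where labelled Isl1cKO (adjusted p-value 0.269). The estimate of Ebf1 lay close to the median of this list and that of Ebf3 below it. In bulk tissue, fewer cells of a type and less RNA per cell cannot be told apart.

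**Figure D4:**
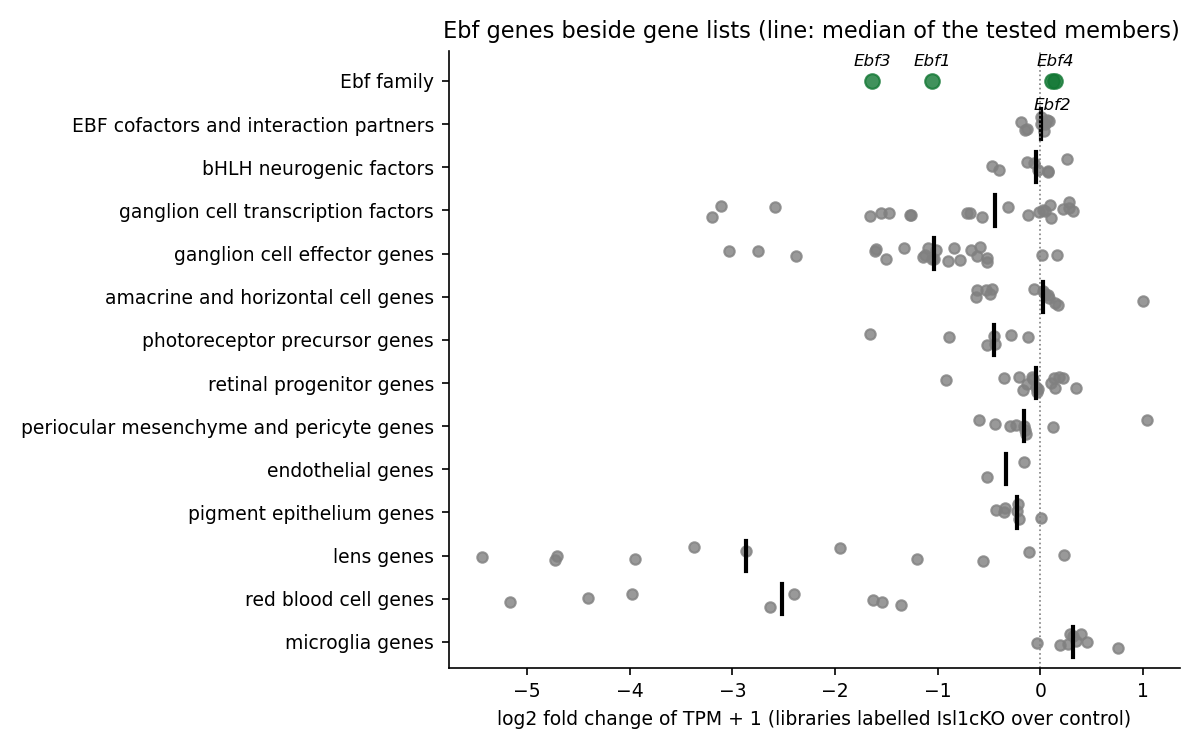
Log2 fold change (horizontal axis, libraries labelled Isl1cKO over control, from log2 of TPM + 1) of the 4 Ebf genes (green) and of every tested member of each gene list (grey points, jittered vertically), with a black line at each list's median. Ebf1 lies close to the median of the ganglion cell effector genes (-1.04), Ebf3 lies lower, and Ebf2 and Ebf4 lie near 0 with the cofactors and bHLH factors.

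The Ebf genes were also expressed per TPM of that ganglion cell effector list and per TPM of Pou4f2, denominators chosen after values had been seen, so these are descriptions without a test. The summed TPM of the effector list was 5977 and 5165 in the controls and 3358 and 2435 in the libraries labelled Isl1cKO. Per 1000 TPM of the list, Ebf1 stood at 8.28 and 8.35 in the controls and at 7.05 and 8.17 in the libraries labelled Isl1cKO. Both of the latter lay below both controls, but the gap between groups was smaller than the spread within the Isl1cKO label. Ebf3 stood at 22.5 and 20.3 against 14.0 and 12.2, lower in both libraries labelled Isl1cKO. Ebf4 went the other way, from 1.67 and 2.39 to 4.20 and 4.46, as did Ebf2, from 0.485 and 0.534 to 0.933 and 1.30. Per 100 TPM of Pou4f2, Ebf1 and Ebf3 were both lower in the libraries labelled Isl1cKO. Ebf1 stood at 39.3 and 34.7 in the controls and at 17.5 and 16.6 in the libraries labelled Isl1cKO, and Ebf3 at 106.9 and 84.4 against 34.8 and 24.8. On that denominator Ebf4 overlapped, at 7.94 and 9.96 against 10.4 and 9.08. Ebf2 stood at 2.302 and 2.221 against 2.315 and 2.636, slightly higher in both libraries labelled Isl1cKO.

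**Figure D5:**
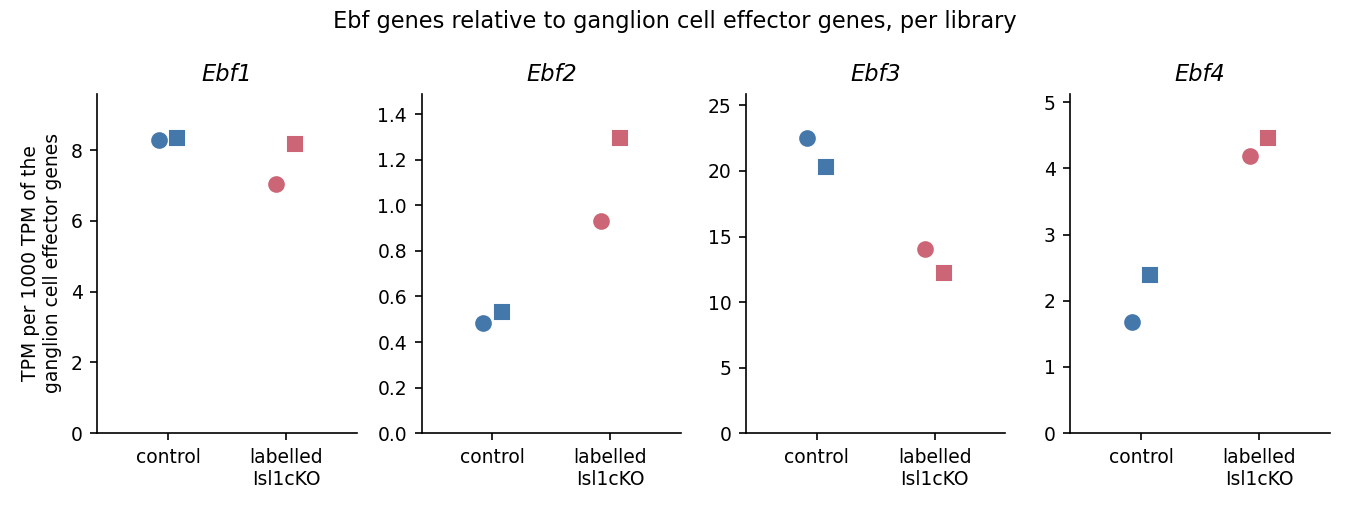
TPM of each Ebf gene per 1000 summed TPM of the ganglion cell effector genes (vertical axes from 0, scaled per gene) in controls (blue) and libraries labelled Isl1cKO (red), with circles for replicate 1 and squares for replicate 2. Ebf1 lies between 7.05 and 8.35 in all 4 libraries. Ebf1, by a small gap, and Ebf3 are lower in both libraries labelled Isl1cKO, and Ebf2 and Ebf4 are higher there.

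Markers of other cells that express or could carry Ebf transcripts were read in the same way. B-lineage genes were near 0. All 10 averaged under 1 TPM over the 4 libraries, none was tested, their sum was 1.93 to 2.04 TPM in the controls and 2.25 to 2.53 TPM in the libraries labelled Isl1cKO, and Blk was listed at 0 in every library. Periocular mesenchyme and pericyte genes, 9 of 22 tested, had 0 calls, 1 lower and 1 higher at an unadjusted p-value under 0.05 in limma, and a median of -0.16. Among all tested genes 8.92% were lower and 3.20% higher at that unadjusted level. The sum of the periocular mesenchyme and pericyte genes was 65.6 to 81.7 TPM in the controls and 86.4 to 111 TPM in the libraries labelled Isl1cKO. Of the 22 genes, 14 averaged under 1 TPM. The most abundant was Ndufa4l2, a mitochondrial protein gene that hypoxia also induces, at 31.0 and 65.9 TPM on average. Without it the sum was 47.7 and 37.6 TPM in the controls and 35.3 and 30.8 TPM in the other group, so that the direction of the whole sum rests on this gene. Foxc1 and Twist1, transcription factors of this mesenchyme, stood at 0.527 TPM or less in each library. Other members of the list were plainly present. Col1a2, the gene counted as lower above, averaged 16.5 TPM in controls and 11.8 TPM under the Isl1cKO label. Vtn ranged from 8.17 to 9.85 TPM over the 4 libraries.

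Amacrine and horizontal cell genes, 13 of 16 tested, had 0 calls and a median of 0.02, with sums of 866 to 891 TPM in the controls and 924 to 989 TPM in the libraries labelled Isl1cKO. Without Pax6, the most abundant, the sums were 353.9 and 327.5 TPM against 378.6 and 326.0 TPM and overlapped. At an unadjusted p-value under 0.05 in limma 2 of them were lower and 1 higher. Photoreceptor precursor genes, 7 of 9 tested, had 0 calls, 2 lower at an unadjusted p-value under 0.05 in limma, and a median of -0.45. Of their tested estimates 7 of 7 were negative, where 63.8% of all tested genes had a negative estimate. The sums of the photoreceptor precursor genes were 232 to 271 TPM and 171 to 228 TPM. Retinal progenitor genes, 16 of 16 tested, had 0 calls, 2 lower at that level, a median of -0.04, and sums of 9046 to 9500 TPM and 8183 to 8839 TPM. Their estimates were negative for 10 genes and positive for 6. The most negative was that of Ccnd1, -0.92 (adjusted p-value 0.158 in limma). Ccnd1 had control values of 1944 and 1498 TPM against 848 and 961 TPM where labelled Isl1cKO. The lower progenitor sums rest on this gene, and without it the groups overlap.

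Blood and lens transcripts had lower sums in the libraries labelled Isl1cKO as well. Red blood cell genes summed to 2903 and 4168 TPM in the controls and to 1418 and 204 TPM under the Isl1cKO label, with 8 of 8 tested estimates negative against that 63.8% of all genes, 0 calls and 4 lower at an unadjusted p-value under 0.05 in limma. Lens genes summed to 200.5 and 241 TPM and to 11.6 and 6.81 TPM, with 7 of 11 tested genes called lower, all of them crystallins (Cryaa, Cryba1, Cryba4, Crybb3, Cryga, Crygb and Crygc). Microglia genes summed to 58.5 to 59.8 TPM in the controls and 72.8 to 87.7 TPM in the libraries labelled Isl1cKO, with 0 of 9 called and 4 higher at an unadjusted p-value under 0.05 in limma. For comparison with these counts, 0.465% of all tested genes were called lower. At the unadjusted level 8.92% of all tested genes were lower and 3.20% higher. Endothelial genes, 2 of 8 tested, and pigment epithelium genes, 7 of 8 tested, had 0 calls, 0 genes at an unadjusted p-value under 0.05 in limma, and medians of -0.34 and -0.23. Endothelial genes summed to 64.8 to 85.8 TPM and to 59.6 to 63.2 TPM, and without Kdr, a VEGF receptor and the most abundant, to 16.9 and 7.80 TPM against 6.43 and 4.06 TPM. Pigment epithelium genes summed to 37.6 to 47.4 TPM and to 27.5 to 38.5 TPM, with Rpe65 listed at 0 in every library. The part of any of these cells in the levels of Ebf1 and Ebf3 was not tested.

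The genes whose pattern over the 4 libraries was most like that of each member were found by the root mean square (RMS) difference between log2(TPM + 1) values centred on each gene's mean. This measure sees the group difference and the replicate spread together, so likeness over 4 libraries is a description only. The nearest genes lie under the median by their selection. For Ebf1 the nearest were Armh4 (RMS 0.0175), Gabbr2, a GABA-B receptor subunit (0.0279), and Cplx1, a regulator of synaptic vesicle fusion (0.0282), against a median of 0.520 over all tested genes. Armh4 had control values of 38.9 and 34.8 TPM against 18.7 and 16.0 TPM where labelled Isl1cKO. For Ebf3 they were Klhl1 (0.0555), Nrp1, a receptor for class 3 semaphorins (0.0564), and Irx6 (0.0565), with a median of 0.837. Irx6 had control values of 9.10 and 7.04 TPM against 2.70 and 1.53 TPM where labelled Isl1cKO. None of these 6 passed the threshold (adjusted p-values from 0.0696 to 0.149 in limma).

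The count of near genes varied between the members. Within an RMS difference of 0.1 there were 37 tested genes for Ebf1 and 8 for Ebf3, but 4947 for Ebf2 and 361 for Ebf4, whose profiles are nearly flat. The nearest to Ebf2 were Raver2, Manba and Mrps16, and to Ebf4 Mzf1, BC065397 and Dancr, at RMS differences of 0.00714 to 0.0277. Ebf1 and Ebf3 differed from each other by 0.332, and 792 genes lay nearer to Ebf1 than Ebf3 did. Ebf2 and Ebf4 differed by 0.173, and 9655 genes lay nearer to Ebf2 than Ebf4 did.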

How the data were processed

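Poly(A)-selected, strand-specific RNA-seq libraries of retina were measured, 2 control and 2 labelled Isl1cKO, each in its own table. Per the submitters' processing notes, which give no role or version, the tools included Trimmomatic, HISAT2, SAMtools and StringTie, with build mm10. The annotation, and whether counting used strand, are not given in the sources used here. Per the file headers, the authors deposited TPM and FPKM per gene and the coverage, a signal per base that is not scaled to depth. Depth in reads is unknown. By their definitions, coverage divided by FPKM equals the gigabases aligned, and its median over rows is given.

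TPM of repeated rows was summed. Genes reaching 1 TPM in 2 or more libraries, 13984 in all, were fitted as log2(TPM + 1) with lmFit and eBayes of limma 3.58.1 (R 4.3.3), genotype being the only term, with Benjamini-Hochberg adjustment over all of them and a threshold of 0.05. Fold changes understate low genes. The fit was tested on simulated data. The alternatives were FPKM, a pseudocount of 0.1, other filters, 3 other scalings, a mean-variance trend, the replicate block, genes on several rows left out, and each library left out.

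The members, lists, motifs and tests were chosen with earlier results of these data known. Named genes were the 4 members, Isl1, list genes past the threshold, the most abundant gene of each list and, per member, the 3 nearest genes by RMS difference, without predicted genes and pseudogenes. Other list genes were named after their values were seen. No list was tested as a set.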

Additional observations from a re-analysis of the deposited data

How the results depend on the processing

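Ebf1 was short of the threshold in the analysis reported and passed it with FPKM (-0.96), with the mean-variance trend (-1.06) and with the replicate block (-1.06). Ebf3 passed with the mean-variance trend (-1.64) and the replicate block (-1.64). Adjusted p-values in limma with the replicate block, which pairs replicate numbers that no label ties together, were 0.0196 for Ebf1 and 0.00939 for Ebf3. Both kept their direction under every alternative. Ebf2 (0.11 to 0.27) and Ebf4 (0.14 to 0.23) did not pass in limma under any alternative that kept all libraries, and Ebf2 could not be fitted at 5 TPM because it fell below that filter. Leaving out each library in turn, with the lone library of a group assumed to vary like the other group, gave -1.18 to -0.94 for Ebf1, -1.96 to -1.32 for Ebf3, 0.09 to 0.14 for Ebf2 and, with a change of sign without Isl1cKO replicate 1 (-0.0304), -0.03 to 0.32 for Ebf4, without a call (adjusted p-values of 0.0629 or more in limma). Ebf3 was lowest without Isl1cKO replicate 1 and least negative without Isl1cKO replicate 2. The log2 ratio of the family total, -1.25, was -1.20 with FPKM and -1.50 to -1.03 with each library left out.

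The count of called genes, 69, was 127 with FPKM, 44 at a pseudocount of 0.1, 15 with no filter, 110 with the trend, 265 with the replicate block and 10 to 37 with a library left out. The ganglion cell effector list had 12 calls with the replicate block and 0 at the pseudocount of 0.1, against 1. The ganglion cell transcription factor list had 6 and 3, against 4, and the lens list 8 and 5, against 7. With the replicate block, 1 amacrine or horizontal cell gene and 2 photoreceptor precursor genes were called, against 0 of each. With a library left out, list medians ranged from -0.44 to -0.02 for periocular mesenchyme (-0.32 at the pseudocount of 0.1), -0.43 to -0.06 for pigment epithelium (-0.42), -0.75 to -0.24 for photoreceptor precursors, -0.50 to -0.18 for endothelium and -3.85 to -1.19 for red blood cells. Calls then numbered 0 to 2 for ganglion cell transcription factors, 0 for effectors, 4 to 7 for lens and 0 to 3 for red blood cells (3 without Isl1cKO replicate 1). The analysis reported did not treat replicate numbers as pairs. No label ties them to a litter or day, and there are only 2. The replicate block does treat them as pairs, so its calls rest on a pairing without a stated basis. Across genes, the replicates numbered 1 deviated from their groups with a correlation of 0.126. Causes of these changes were not tested. With 2 libraries a group and depth in reads unknown, small differences of Ebf2, the least covered member, were not resolved.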
